A study of Mus musculus with 6 samples.

Results

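The neutrophil recruitment genes described here were 10 genes fixed by name out of 54532 genes listed for mouse colon tumors. They are S100a8, S100a9, Cxcl1, Cxcl2, Cxcl3, Cxcl5, Cxcr2, Csf3, Csf3r and Trem1. They were named by their known roles, with earlier results of these data known. The rule that lists them sets no threshold on a measured value. RNA-seq of polyA RNA was performed on 6 colon tumors of mice on a C57BL/6N background that all received azoxymethane (AOM) and cycles of dextran sulfate sodium (DSS), a chemical model of colitis-associated cancer. The 3 Tmem173fl/fl AOM+DSS-L tumors carried loxP-flanked alleles of Tmem173, the gene encoding STING, and no Cre. The 3 Tmem173iΔmye AOM+DSS-L tumors carried the same alleles together with Lyz2-Cre ert2, a tamoxifen-dependent recombinase that the Lyz2 promoter drives in macrophages, neutrophils and other myeloid cells. All mice received tamoxifen, and they received it after 3 AOM/DSS cycles, when tumors had formed. The question of the comparison was how the transcriptome of established tumors differed after deletion of STING in myeloid cells. Ages and sexes of these mice are not given in the labels.

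Neutrophils leave the blood along gradients of chemokines that bind the receptor CXCR2, which Cxcr2 encodes. In mice these ligands include the products of Cxcl1, Cxcl2, Cxcl3 and Cxcl5, which epithelial, stromal and myeloid cells release under inflammatory signals such as IL-1 and IL-17 through NF-kB. G-CSF, encoded by Csf3, drives the production and release of neutrophils from bone marrow through its receptor, encoded by Csf3r. S100a8 and S100a9 encode the subunits of calprotectin, an abundant cytoplasmic complex of neutrophils that acts as a danger signal once released, and Trem1 encodes a surface receptor of neutrophils and monocytes that amplifies inflammatory responses. STING, a sensor of cytosolic cyclic dinucleotides, activates interferon genes and NF-kB.

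The 4 ligand genes are clustered in the genome, and the promoters of Cxcl1, Cxcl2 and Cxcl3 share letters of the NF-kB motif, so these sequences are shown first. In GRCm38, Cxcl5 (chr5:90759360-90761624), Cxcl3 (chr5:90786103-90789600), Cxcl1 (chr5:90891241-90893115) and Cxcl2 (chr5:90903871-90905938) all lie on the plus strand within 146579 bases. Promoter sequences of RefSeq (GRCm38.p6) matched 8 of the 10 genes by symbol, all but Cxcl5 and Csf3. The letters GGGNNTTTC of the NF-kB motif were searched on both strands over 250 bases before and 50 after each start. They were present in 5 of these 8 promoters (Cxcl1, Cxcl2, Cxcl3, S100a9 and Cxcr2) and in 1432 of 32851 promoters (4.36%). Followed by a further C, the motif remained in Cxcl1, Cxcl2 and Cxcl3 and in 535 of the 32851 promoters (1.63%). The further C was chosen from the letters that these 3 chemokine promoters share, so their holding it was fixed in advance. The same is true of their common form, GGGAATTTCC, which was found in 29 of the 32851 promoters (0.0883%). Its first base lay 71 bases upstream of the RefSeq start of Cxcl1, 97 upstream of Cxcl2 and 73 upstream of Cxcl3. The 110 bases of the plus strand that precede each start are printed here, with matches of 9 letters on either strand in capitals, at chr5:90891135-90891244 for Cxcl1, chr5:90903789-90903898 for Cxcl2 and chr5:90785991-90786100 for Cxcl3.
Cxcl1: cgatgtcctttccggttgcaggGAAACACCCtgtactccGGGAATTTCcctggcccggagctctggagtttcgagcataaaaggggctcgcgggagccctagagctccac
Cxcl2: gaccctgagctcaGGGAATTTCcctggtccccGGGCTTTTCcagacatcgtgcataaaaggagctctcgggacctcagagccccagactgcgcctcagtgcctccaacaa
Cxcl3: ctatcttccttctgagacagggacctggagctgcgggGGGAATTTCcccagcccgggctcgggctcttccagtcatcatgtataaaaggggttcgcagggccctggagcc
In an alignment of the 250 upstream bases, Cxcl2 and Cxcl3 were identical at 74.4% of aligned positions, Cxcl1 and Cxcl2 at 62.3% and Cxcl1 and Cxcl3 at 60.7%, against 49.0 to 60.5% for pairs of any of these with S100a8 or S100a9. The letters were not found in the promoter windows of S100a8, Csf3r or Trem1. A match of letters is a description of the sequence and not a measured binding site.

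Total counts per tumor lay between 15329810 and 16533732. The test covered 16426 genes whose mean FPKM, a count scaled to gene length and depth, reached 0.5. Tmem173 had 1705 to 2911 counts in Tmem173fl/fl and 1953 to 2291 in Tmem173iΔmye tumors, so whole tumor RNA did not tell the genotypes apart. Counts of the Y chromosome genes Uty, Kdm5d, Eif2s3y and Ddx3y summed to at least 2655 in replicates 1 and 2 of Tmem173iΔmye and replicate 1 of Tmem173fl/fl, but to at most 2 elsewhere, so the groups differed in their proportion of male mice. Tmem173fl/fl replicate 2 stood apart by its squamous keratins, with 1252 counts of Krt5 against 0 to 124 in the other tumors. Colon epithelium markers were high in all 6 tumors, with 11329 to 13652 CPM (counts scaled to library size) summed over 8 genes. Of 18 neutrophil markers, 11 were tested. Ly6g, a surface marker of neutrophils, had 571 to 1573 counts per tumor. Hdc had 61 to 265 counts, Retnlg 26 to 296 and Padi4 981 to 1777. The granule genes Mpo, Ctsg and Camp had 4 counts or fewer and Elane had 0 in every tumor. In bulk tumor RNA, fewer cells of a type and less RNA per cell cannot be told apart.

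The data show 1 pattern for most of these genes: 9 of the 10 were highest in a single tumor, Tmem173iΔmye replicate 1 (highest for 24.9% of genes tested), and the other tumors of both genotypes overlapped. Between genotypes, no gene had an adjusted p under 0.05, where 0% of all 16426 genes tested did so, and none was past the threshold used in the study, an unadjusted p of at most 0.05 together with a change of 1 or more log2 units, which 2.12% of the genes tested passed. At an unadjusted p under 0.05 there were also 0 of the 10, against 6.14% of genes tested. DESeq2 called none of the 10 either, against 0.164% of genes, and without the filter on low values S100a9 alone passed the threshold of the study, as did 2.82% of the genes then tested. The log2 fold change of Tmem173iΔmye over Tmem173fl/fl was above 0 for 9 of the 10 genes, against 49.4% of genes tested, with a median of 0.78 against -0.0042 over all genes tested. Without Tmem173iΔmye replicate 1, 3 of the 10 were above 0, against 46.9% of genes tested, and the median was -0.15. Adjusted p-values of the 10 genes ranged from 0.752 to 0.847 in edgeR's quasi-likelihood test (Benjamini-Hochberg).

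Among the alarmin genes, S100a8 (chr3:90668978-90670035, plus strand) had 46.9, 8.93 and 27.2 CPM in Tmem173fl/fl replicates 1, 2 and 3 and 117, 21.6 and 16.4 CPM in Tmem173iΔmye replicates 1, 2 and 3. S100a9 (chr3:90692632-90695721, minus strand), which lies 22596 bases away, had 35.1, 10.001 and 26.4 CPM against 138, 19.0 and 19.3 CPM. For both genes Tmem173iΔmye replicate 1 was the highest tumor, Tmem173fl/fl replicate 2 was the lowest, and the other tumors of the groups were interleaved. The means of S100a8 were 27.7 ± 19.0 (SD, n = 3) and 51.8 ± 56.9 CPM (SD, n = 3), a log2 fold change of 0.90 (SE 0.82, 95% interval -0.999 to 2.81, adjusted p = 0.793 from edgeR). For S100a9 the means were 23.8 ± 12.8 (SD, n = 3) and 58.7 ± 68.4 CPM (SD, n = 3), and the log2 fold change was 1.30 (SE 0.82, 95% interval -0.59 to 3.19, adjusted p = 0.752 from edgeR). The differences were smaller than the spread between tumors. Without Tmem173iΔmye replicate 1 the log2 fold changes turned to -0.55 for S100a8 and -0.32 for S100a9, and without Tmem173fl/fl replicate 2 they were 0.48 and 0.93. The FPKM of S100a9 over that of S100a8 ran from 0.994 to 1.56 over the tumors. The highest tumor was 13.2 times the lowest for S100a8 and 13.8 times for S100a9 in CPM. The ratio was 1.26 ± 0.249 in Tmem173fl/fl and 1.43 ± 0.225 in Tmem173iΔmye tumors (SD, n = 3, exact two-sided permutation p = 0.5 for the difference between groups).

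**Figure D1:**
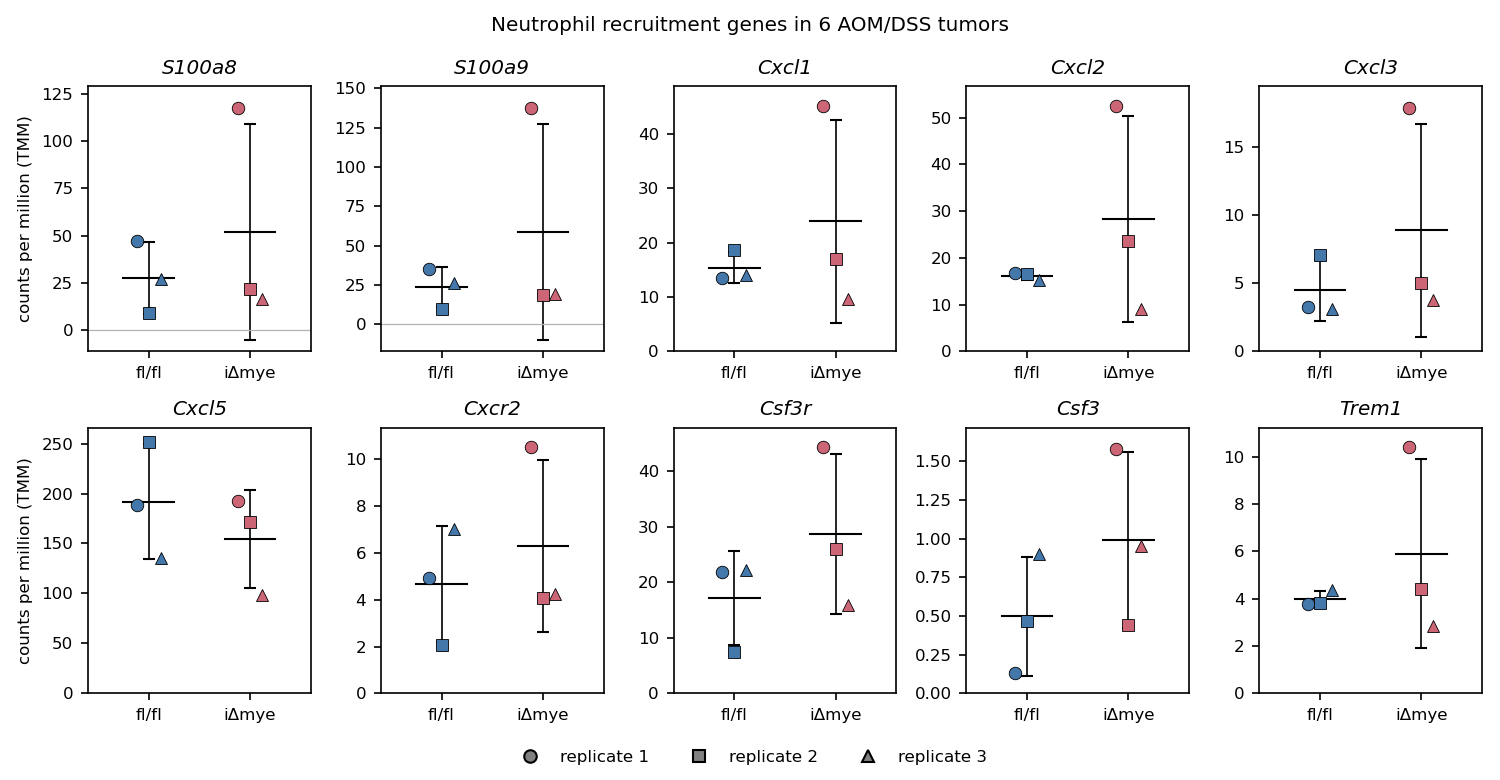
CPM (TMM-normalized library sizes) of the 10 genes in each tumor, on a linear axis that differs between panels; circles, squares and triangles are replicates 1, 2 and 3, horizontal lines are means and bars are 1 SD (n = 3). Tmem173iΔmye replicate 1 is the highest point in 9 panels, and Cxcl5 is highest in Tmem173fl/fl replicate 2.

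The plot of CPM by tumor shows the same layout for the inducible CXCR2 ligands. Cxcl1, the mouse KC chemokine, had 13.5, 18.6 and 14.0 CPM in Tmem173fl/fl replicates 1, 2 and 3 and 45.0, 17.01 and 9.68 CPM in the Tmem173iΔmye tumors. Cxcl2, also known as MIP-2, had 16.7, 16.5 and 15.2 CPM against 52.5, 23.6 and 9.17 CPM. The Tmem173fl/fl tumors lay close together for both genes, and the Tmem173iΔmye tumors held both the highest and the lowest value. Cxcl3, the least abundant of the ligands, had 3.25, 7.07 and 3.12 CPM against 17.9, 5.04 and 3.76 CPM. Means were 15.4 ± 2.81 and 23.9 ± 18.6 CPM for Cxcl1, 16.1 ± 0.834 and 28.4 ± 22.0 CPM for Cxcl2 and 4.48 ± 2.24 and 8.89 ± 7.80 CPM for Cxcl3 (SD, n = 3 per group). The SD of Cxcl1, Cxcl2 and Cxcl3 was thus higher in the Tmem173iΔmye than in the Tmem173fl/fl group, a difference that was not tested. Log2 fold changes were 0.64 for Cxcl1 (SE 0.50, 95% interval -0.53 to 1.80), 0.82 for Cxcl2 (SE 0.52, 95% interval -0.40 to 2.03) and 0.99 for Cxcl3 (SE 0.63, 95% interval -0.47 to 2.44). Adjusted p-values from edgeR were 0.770, 0.756 and 0.753. Without Tmem173iΔmye replicate 1 these values were -0.21, 0.020 and -0.025. Without Tmem173iΔmye replicate 3, Cxcl1 at 1.01 and Cxcl2 at 1.24 were past the threshold of the study, which 2.6% of genes tested then passed. Cxcl2 and Cxcl3 share 61 stretches of 50 bases (3.37% of those of Cxcl2 and 6.31% of those of Cxcl3), so a few reads may not be assignable to either.

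Cxcl5, the CXCR2 ligand also called LIX, had a different order of tumors. It had 189, 251 and 136 CPM in Tmem173fl/fl replicates 1, 2 and 3 and 193, 172 and 98.7 CPM in the Tmem173iΔmye tumors. Its highest tumor was Tmem173fl/fl replicate 2, its lowest was Tmem173iΔmye replicate 3, and the groups overlapped. Means were 192 ± 57.7 and 154 ± 49.4 CPM (SD, n = 3 per group), and the log2 fold change was -0.31 (SE 0.30, 95% interval -1.0 to 0.37, adjusted p = 0.801 from edgeR). It was the only member of the 10 below 0, at -0.51 without Tmem173iΔmye replicate 1 and at -0.071 without Tmem173fl/fl replicate 2, the tumor with high squamous keratins. Tmem173iΔmye replicate 1 was 1.12 times the median of the other 5 tumors for Cxcl5, against 3.22, 3.17 and 4.76 times for Cxcl1, Cxcl2 and Cxcl3.

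Cxcl5 was also the most abundant of the 10 per length, with a median FPKM over the 6 tumors of 95.6, followed by S100a9 at 43.5, S100a8 at 34.9, Cxcl1 at 8.21, Cxcl2 at 7.99 and Csf3r at 6.04. The other 4 genes had median FPKM values between 0.482 for Csf3 and 1.49 for Cxcr2. The FPKM of Cxcl3 divides by a length of 3498 bases, 3.44 times the 1016 bases of its longest coding transcript, and that of Cxcl1 by 1.97 times its longest coding transcript. Per kilobase of that transcript, CPM of Cxcl3 ranked the seventh of the 10 in place of the ninth, and the order of S100a8 and S100a9 was exchanged. Of the summed FPKM of the 4 ligands, Cxcl5 made up 86.2, 87.1 and 82.3% in Tmem173fl/fl replicates 1, 2 and 3 and 65.5, 80.8 and 83.2% in the Tmem173iΔmye tumors. The share was lowest in Tmem173iΔmye replicate 1, where Cxcl1, Cxcl2 and Cxcl3 summed to 54.3 FPKM against 10.6 to 21.8 FPKM in the other 5 tumors. The ratio of Cxcl5 to Cxcl3 was 85.8 ± 21.4 in Tmem173fl/fl and 44.5 ± 22.3 in Tmem173iΔmye tumors without overlap (SD, n = 3 per group, exact two-sided permutation p = 0.1, the smallest that 3 against 3 tumors allow). The ratio of Cxcl5 to Cxcl2 was 13.1 ± 3.50 against 8.03 ± 3.94 (n = 3, exact permutation p = 0.2) and that to Cxcl1 12.5 ± 2.34 against 8.25 ± 3.41 (n = 3, exact permutation p = 0.3). With Benjamini-Hochberg adjustment over the 8 ratios computed, every p was 0.8.

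Among the receptors, Cxcr2 (chr1:74153989-74161246, plus strand) had 4.94, 2.07 and 7.02 CPM in Tmem173fl/fl replicates 1, 2 and 3 and 10.5, 4.10 and 4.27 CPM in the Tmem173iΔmye tumors. Csf3r (chr4:126024550-126044440, plus strand) had 21.9, 7.40 and 22.1 CPM against 44.3, 26.0 and 15.9 CPM. As for the alarmins, Tmem173iΔmye replicate 1 was the highest and Tmem173fl/fl replicate 2 the lowest tumor for both receptor genes. The mean of Cxcr2 was 4.68 ± 2.49 against 6.30 ± 3.67 CPM (SD, n = 3 per group), with a log2 fold change of 0.43 (SE 0.53, 95% interval -0.81 to 1.66, adjusted p = 0.847 from edgeR). The mean of Csf3r was 17.2 ± 8.45 against 28.7 ± 14.4 CPM (SD, n = 3 per group), with a log2 fold change of 0.74 (SE 0.48, 95% interval -0.38 to 1.86, adjusted p = 0.756 from edgeR). Without Tmem173iΔmye replicate 1 these became -0.17 and 0.28, and without Tmem173fl/fl replicate 2 they were 0.074 and 0.38. Of the 50-base stretches of their transcripts, 6.77% for Cxcr2 and 11.5% for Csf3r also occur in other genes.

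Csf3 (chr11:98701263-98703629, plus strand), the ligand of Csf3r, was close to the detection floor, with 2, 7 and 15 counts in Tmem173fl/fl replicates 1, 2 and 3 and 25, 7 and 15 counts in the Tmem173iΔmye tumors. Replicates 2 and 3 had the same counts in both genotypes, so the difference rested on replicate 1 of each. Its log2 fold change was 0.97 (SE 0.73, 95% interval -0.72 to 2.66, adjusted p = 0.766 from edgeR), and its mean FPKM of 0.525 lay just above the filter. Trem1 (chr17:48232768-48246924, plus strand) had 3.77, 3.80 and 4.38 CPM in Tmem173fl/fl and 10.4, 4.41 and 2.86 CPM in Tmem173iΔmye tumors. The Tmem173fl/fl tumors again lay within the range of the Tmem173iΔmye tumors, at 3.98 ± 0.344 against 5.90 ± 3.99 CPM (SD, n = 3 per group). The log2 fold change of Trem1 was 0.56 (SE 0.46, 95% interval -0.51 to 1.64, adjusted p = 0.773 from edgeR) and -0.13 without Tmem173iΔmye replicate 1. A processed pseudogene on the opposite strand overlaps Trem1, and whether counting used strand is not given in the sources used here.

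**Figure D2:**
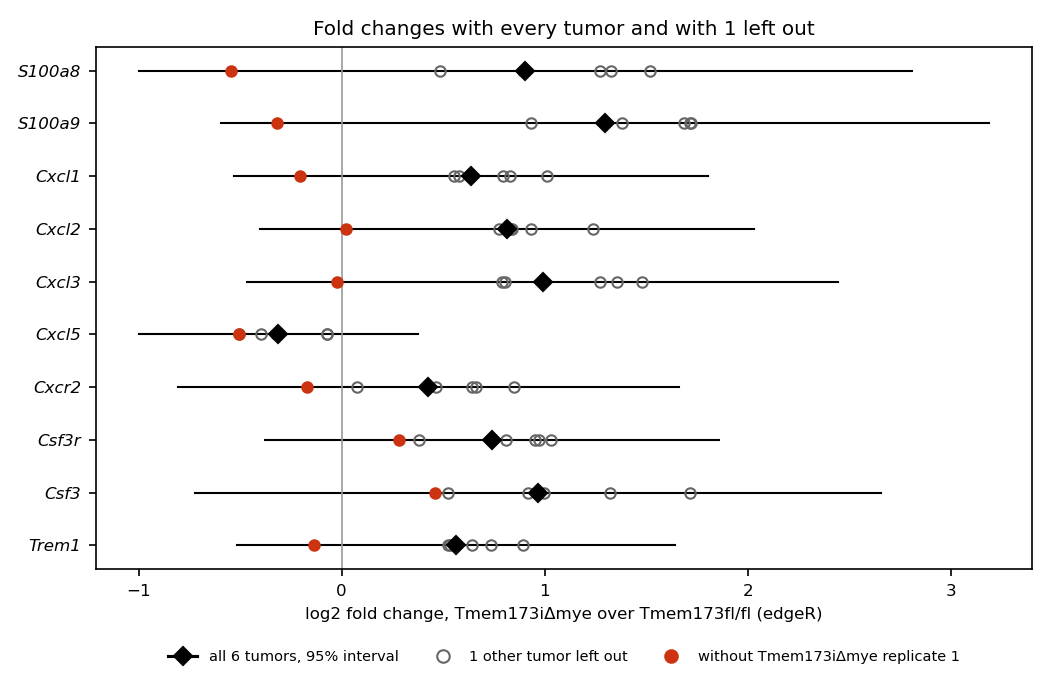
Log2 fold change of Tmem173iΔmye over Tmem173fl/fl tumors from edgeR for each gene; diamonds with lines are the estimate with its 95% interval from all 6 tumors, open circles leave out 1 other tumor and filled red circles leave out Tmem173iΔmye replicate 1. All 10 intervals include 0, and the red circle is the lowest estimate of 9 genes; for Cxcl5 the estimate without Tmem173fl/fl replicate 3 is equally low at -0.51.

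The plot of fold changes shows that all 10 intervals included 0 and that 9 genes had their lowest estimate without Tmem173iΔmye replicate 1, while Cxcl5 was at -0.51 both without that tumor and without Tmem173fl/fl replicate 3. That tumor exceeded the median of the other 5 tumors at least 2 times for 9 of the 10 genes, against 6.5% of genes tested, with 7.14 times for S100a9 and 5.44 times for S100a8 at the upper end and 2.02 times for Csf3r at the lower. Tmem173fl/fl replicate 2, highest for Cxcl5, was the highest tumor for 26.6% of genes tested. For S100a8, S100a9, Cxcr2 and Csf3r the lowest tumor was Tmem173fl/fl replicate 2, as for 27.1% of genes tested. None of the 10 genes separated the groups without overlap, against 12.5% of genes tested, and without Tmem173iΔmye replicate 3 it was 3 of the 10, against 22.6%. With Y-linked reads added to the model as a term, the 9 positive log2 fold changes stayed above 0 and 8 of them were lower than without it, Csf3 at 1.38 being the exception. They were 0.22 for S100a8, 0.63 for S100a9, 0.24 for Cxcl1 and 0.22 for Cxcl2. The 3 tumors with Y-linked reads were 1 Tmem173fl/fl and 2 Tmem173iΔmye tumors, which include Tmem173iΔmye replicate 1. Among them, 9 of the 10 genes were higher in the Tmem173iΔmye tumors. Among the 3 without such reads, 3 of the 10 were higher in Tmem173iΔmye, and the median log2 ratio was -0.29. That comparison set Tmem173iΔmye replicate 3 alone against 2 Tmem173fl/fl tumors. The same shares over all genes were not computed.

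Across the 6 tumors the 10 genes differed in their lowest tumor. Pearson's r of log2(CPM + 1) over the 6 tumors is given as a description, since the values share libraries and depth and 1 tumor is extreme in most of them. S100a8 and S100a9 had r = 0.98 (Spearman's rho 0.94), and the 6 pairs among S100a8, S100a9, Cxcr2 and Csf3r had r from 0.87 to 0.98. Without Tmem173iΔmye replicate 1 these 6 pairs had r from 0.77 to 0.98 over 5 tumors. Of these, Tmem173fl/fl replicate 2 was the lowest for S100a8, S100a9, Cxcr2 and Csf3r. It lay at -1.56, -1.41, -0.96 and -1.34 log2 units around the mean of each gene over the 6 tumors. The r without this tumor as well was not computed, so how far r rested on it is not known. The 3 pairs among Cxcl1, Cxcl2 and Cxcl3 had r from 0.85 to 0.96 (rho 0.60 to 0.77). Without Tmem173iΔmye replicate 1 r was 0.84 for Cxcl1 and Cxcl2 but 0.68 for Cxcl1 and Cxcl3 and 0.33 for Cxcl2 and Cxcl3. With Trem1, r without that tumor was 0.75 for Cxcl1, 0.87 for Cxcl2 and 0.077 for Cxcl3. The 12 pairs between Cxcl1, Cxcl2 or Cxcl3 and the alarmin and receptor genes had r from 0.36 to 0.76 over all tumors but from -0.93 to 0.27 without it. Cxcl1, Cxcl2 and Cxcl3 and the alarmin and receptor genes were thus high together in Tmem173iΔmye replicate 1, and the positive r between them rested on that tumor.

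**Figure D3:**
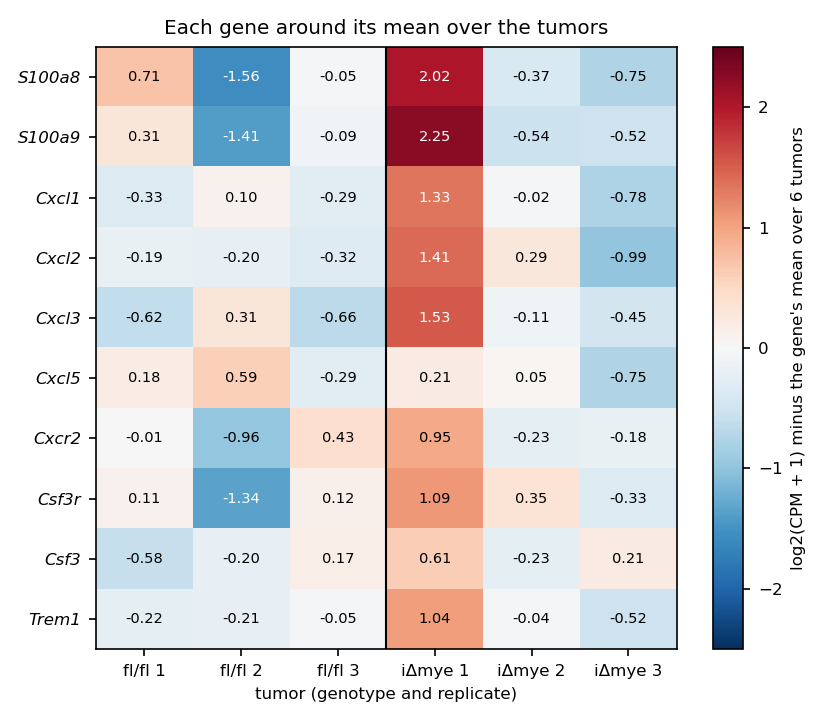
Log2(CPM + 1) of each gene in each tumor minus the mean of the gene over the 6 tumors, as color and as printed value; the vertical line separates the genotypes. Tmem173fl/fl replicate 2 is low for S100a8, S100a9, Cxcr2 and Csf3r but not for Cxcl1, Cxcl3 and Cxcl5, and Tmem173iΔmye replicate 3 is lowest for Cxcl1, Cxcl2, Cxcl5 and Trem1.

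The map of centred values shows these differences by tumor. In Tmem173fl/fl replicate 2, S100a8 was 1.56 and Csf3r 1.34 log2 units below its mean while Cxcl3 was 0.31 and Cxcl5 0.59 above. In Tmem173iΔmye replicate 3, Cxcl2 was 0.99 and Cxcl5 0.75 below its mean while Csf3 was 0.21 above. The genes most like each member by Pearson's r over the 6 tumors were Hoxa11 for S100a8 (r = 0.998), Gbp9 for S100a9 (r = 0.995), Fam69a for Cxcl1 (r = 0.987), Ltbp2 for Cxcl2 (r = 0.994), Gm4617 for Cxcl3 (r = 0.990) and Gm43848 for Cxcl5 (r = 0.988). For Cxcr2 it was Ifitm2 (r = 0.993), for Csf3r the complement gene C1qb (r = 0.995), for Trem1 Pdcd5 (r = 0.994) and for Csf3 the antisense gene 3110045C21Rik (r = 0.987). With 6 tumors an r of at least 0.95 was reached by 10 genes (0.0609% of genes tested) for Cxcl5 and by up to 170 genes (1.04%) for S100a9.

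Further genes of the pathway were described by lists written from general knowledge, with earlier results of these data known. Other neutrophil-attracting chemokine and receptor genes were positive in 11 of 12 tested, with a median log2 fold change of 0.21 and of -0.037 without Tmem173iΔmye replicate 1. Ccl4, a chemokine of activated macrophages and T cells, was the only member of that list past the threshold of the study, at 9, 6 and 6 counts against 50, 9 and 12 counts in replicates 1, 2 and 3 (log2 fold change 1.72, SE 0.73) and 0.56 without that tumor. Ppbp, the platelet CXCR2 ligand that lies in the same chromosome 5 cluster, had 459 counts in Tmem173fl/fl replicate 2 and 47 to 73 in the other tumors. Among 11 upstream cytokines and receptors tested, 7 were above 0 (median 0.25, and -0.028 without that tumor). Past the threshold were 2 of the 11, against 2.12% of all genes tested.

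These 2 genes were Il1b and Il17a, and for both the groups did not overlap, as for 12.5% of all genes tested. Il1b, which encodes the cytokine IL-1 beta, had 20.8, 18.7 and 16.6 CPM in Tmem173fl/fl replicates 1, 2 and 3 and 110, 32.6 and 22.4 CPM in the Tmem173iΔmye tumors, a log2 fold change of 1.56 (SE 0.54) and of 0.56 without Tmem173iΔmye replicate 1. Il17a, the cytokine of Th17 and gamma delta T cells, had 9, 9 and 8 counts against 61, 56 and 10 counts, a log2 fold change of 2.25 (SE 0.67) and of 1.89 without that tumor. Neither passed adjustment over all genes (adjusted p = 0.742 for each from edgeR). Il17a was thus high in 2 of the 3 Tmem173iΔmye tumors, those with Y-linked reads, and Cxcl1 was high in 1 of these 2. In Tmem173iΔmye replicate 3, Il17a had 10 counts against at most 9 in Tmem173fl/fl tumors. The lack of overlap for Il17a thus rested on counts near the detection floor.

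No gene of any list had an adjusted p under 0.05 from edgeR. Of 14 inducible regulators downstream of NF-kB, MAPK and IL-17, 10 were above 0 (median 0.052, and -0.033 with 6 of 14 above 0 without Tmem173iΔmye replicate 1) and none was past the threshold of the study. Of 14 receptors and signalling partners, 11 were above 0 (median 0.23, and 0.073 without that tumor), led by Csf2rb (log2 fold change 0.59, SE 0.19) and Csf2rb2 (0.66, SE 0.25), which encode beta chains of the GM-CSF, IL-3 and IL-5 receptors. All 11 neutrophil adhesion and entry genes tested were above 0 (median 0.40, and 0.27 with 7 of 11 above 0 without Tmem173iΔmye replicate 1), and none was past the threshold. Among them Cd177, a neutrophil surface protein, had 380, 236 and 134 CPM in Tmem173fl/fl replicates 1, 2 and 3 against 517, 397 and 312 CPM, with a log2 fold change of 0.71 (SE 0.36). In every tumor it was above Csf3r, which had 7.40 to 44.3 CPM. Which cells of the tumors transcribed Cd177 was not tested.

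**Figure D4:**
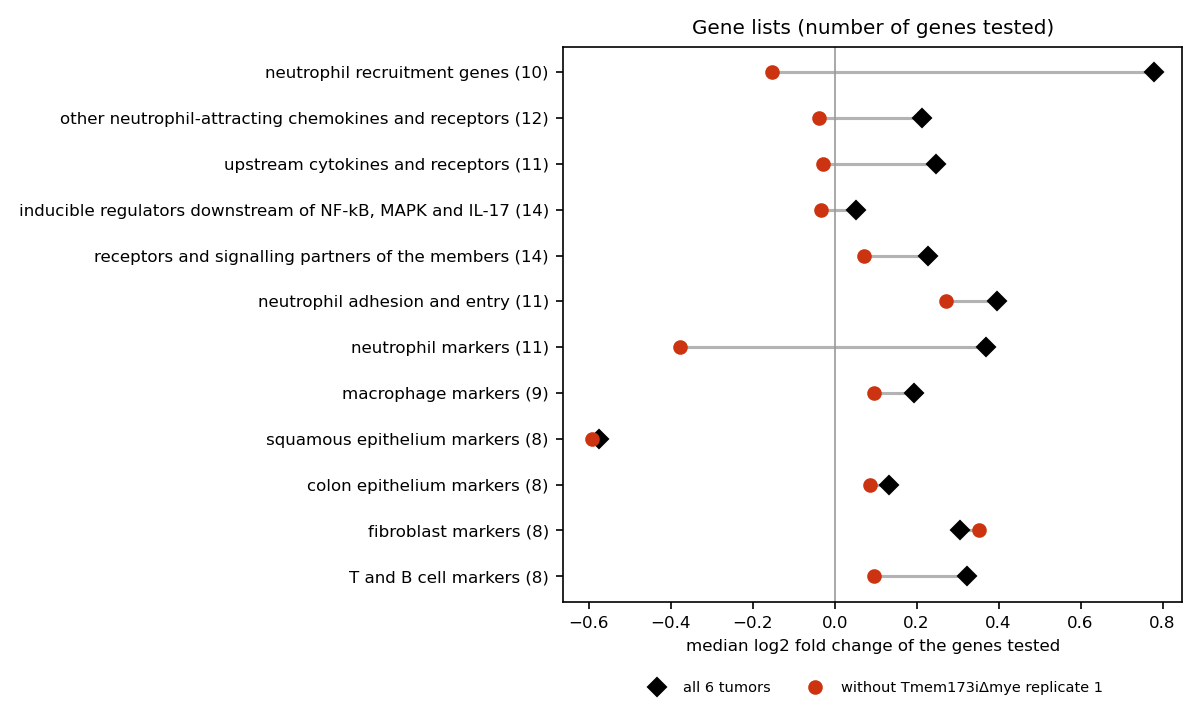
Median log2 fold change of Tmem173iΔmye over Tmem173fl/fl tumors for the genes tested of each list, with the number tested in brackets; diamonds use all 6 tumors and red circles leave out Tmem173iΔmye replicate 1. The median of the 10 neutrophil recruitment genes moves from 0.78 to -0.15 and that of the 11 neutrophil markers from 0.37 to -0.38.

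As the plot of list medians shows, the median of the neutrophil markers moved in the same way when Tmem173iΔmye replicate 1 was left out. Of 11 tested, 8 were above 0 with a median of 0.37, and 5 were above 0 with a median of -0.38 without that tumor. Not every marker moved so. Without that tumor the log2 fold change rose for Mmp25 (1.06 to 1.14), Mmp9 (0.44 to 0.75) and Padi4 (0.37 to 0.45), and it fell for the other markers tested. Ly6g did not share the order of S100a8, with 102, 38.1 and 87.3 CPM in Tmem173fl/fl replicates 1, 2 and 3 and 62.7, 60.4 and 56.9 CPM in the Tmem173iΔmye tumors (log2 fold change -0.34, SE 0.32). Retnlg, a transcript of mature neutrophils, was highest in Tmem173iΔmye replicate 1 at 18.7 CPM, against 1.64 to 7.56 CPM in the other 5 tumors. The summed level of all 18 neutrophil markers was 241 to 353 CPM in Tmem173fl/fl and 225 to 286 CPM in Tmem173iΔmye tumors, and 174 of the 353 CPM in Tmem173fl/fl replicate 2 were Ltf, the lactoferrin gene. Ly6g at 38.1 to 102 CPM and Padi4 at 63.8 to 113 CPM were large parts of the sums. Both were above Csf3r (7.40 to 44.3 CPM) in every tumor, and which cells of the tumors transcribed them was not tested. Retnlg gave 1.64 to 18.7 CPM, so the sums do not show its order of tumors. The part of neutrophil number in the levels of the 10 genes was not tested.

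Markers of other cells had medians between 0.13 and 0.32, except for squamous epithelium. Macrophage markers had a median log2 fold change of 0.19 (6 of 9 above 0) and summed to 274 to 360 CPM in Tmem173fl/fl and 299 to 452 CPM in Tmem173iΔmye tumors, and the highest sum was that of Tmem173iΔmye replicate 1. Colon epithelium markers had a median of 0.13 (8 of 8 above 0), fibroblast markers of 0.31 (7 of 8) and T and B cell markers of 0.32 (5 of 8). Without Tmem173iΔmye replicate 1 the medians were 0.097 for macrophage, 0.087 for colon epithelium, 0.35 for fibroblast and 0.096 for T and B cell markers. Dpt, a matrix gene of fibroblasts (log2 fold change 1.08, SE 0.20), and Jchain, of antibody-secreting cells (log2 fold change 1.10, SE 0.46), were past the threshold of the study, and without that tumor their values were 0.97 and 0.65. Squamous epithelium markers had a median of -0.57 with 0 of 8 above 0, and Krt4 was past the threshold at -1.15 (SE 0.43). They summed to 393 CPM in Tmem173fl/fl replicate 2 and to 57.2 to 129 CPM in the other 5 tumors. The part of this tissue in the low values of S100a8, S100a9, Cxcr2 and Csf3r in that tumor was not tested.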

How the data were processed

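The table deposited by the authors holds raw counts, FPKM values and the length of each gene. Per the labels and methods, reads were cleaned with fastp, aligned to GRCm38 with HISAT2 2.0.5 and counted with featureCounts 1.5.0-p3. The deposited FPKM equal counts divided by length, median-of-ratios size factors and the geometric mean total (largest relative difference 4.96e-07). The authors' own fold changes and p-values in the table were not used.

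Counts of genes reaching a mean FPKM of 0.5 were tested with edgeR 4.0.16 (TMM, quasi-likelihood, genotype as the only term, Benjamini-Hochberg adjustment over 16426 genes). SE is the absolute log2 fold change over the square root of F. Alternatives were DESeq2 1.42.0, limma 3.58.1 on log2(FPKM + 1) or log2(FPKM + 0.1), voom, other filters and scaling, a replicate block, Y-linked reads as a term and leaving out each tumor. The scripts were tested on simulated data.

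The 10 genes and all lists were chosen with earlier results of these data known. Text names the 10 genes, Tmem173, list genes past the threshold of the study or among the 4 lowest p-values of a list, and the gene most like each of the 10. Ppbp, Ly6g, Retnlg, Mmp9, Krt5, Mpo, Ctsg, Camp, Elane and the genes of the closing observations were named after their values were seen. Labels number the replicates without saying that they came from separate mice, so p-values measure the spread between these samples. Counting intervals and floors cover counting error only.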

Additional observations from a re-analysis of the deposited data

How the results depend on the processing

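No alternative gave any of the 10 genes an adjusted p under 0.05, and the smallest was 0.542, without Tmem173fl/fl replicate 1. DESeq2 called 27 of all 16426 genes (0.164%) and none of the 10. Without the filter 1 of the 10 genes, S100a9, was past the threshold of the study (2.82% of 30939 genes). Leaving out 1 tumor at a time, 0 to 2 genes were past that threshold, 0 to 3 did not overlap between groups, 3 to 9 had a log2 fold change above 0 and the median ran from -0.15 to 1.02. The low ends of the last 2 came from leaving out Tmem173iΔmye replicate 1. The upper ends of 2 past the threshold and 3 without overlap (22.6% of all genes then) came from leaving out Tmem173iΔmye replicate 3. The same omissions gave ranges of -0.55 to 1.52 for S100a8, -0.32 to 1.72 for S100a9, -0.21 to 1.01 for Cxcl1, -0.025 to 1.48 for Cxcl3, -0.17 to 0.85 for Cxcr2 and -0.13 to 0.89 for Trem1, each below 0 without Tmem173iΔmye replicate 1 only. Within tumors without Y-linked reads, a comparison added after the values were seen, 3 genes were above 0 with a median of -0.29, and within those with such reads 9 were, with a median of 1.07. Each of these comparisons had a single tumor in 1 of its groups. With Y-linked reads as a term the median was 0.24. The cause of these changes was not tested.

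Same-numbered tumors had correlations of their deviations from the group means of 0.0085 to 0.31, so the numbers were not taken to pair the tumors, and not every tumor correlated best with its own number. With a replicate block, adjustment left 0 of all genes, and 377 instead of 349 genes were past the threshold. None of the 10 was called, 9 were above 0 and their median was 0.57. With 3 tumors per group and a log2 SE of 0.30 to 0.82, differences of the size seen could not be told from the spread between tumors.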

Other observations

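Il6, which encodes an inducer of acute inflammation and lay under the filter on low values, had 3, 4 and 5 counts in Tmem173fl/fl replicates 1, 2 and 3 and 57, 2 and 13 counts in the Tmem173iΔmye tumors. Tmem173iΔmye replicate 1 was the highest tumor for Il6 as for Il1b, Ccl4 and 9 of the 10 neutrophil recruitment genes.

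Ltf, which encodes lactoferrin and is transcribed by neutrophil precursors as well as glandular epithelium, had 2611 counts in Tmem173fl/fl replicate 2 and 167 to 804 counts in the other 5 tumors. That tumor, the highest in Krt5 and in the CXCR2 ligands Cxcl5 and Ppbp, was the lowest in S100a8, S100a9, Cxcr2 and Csf3r.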
